A study of Mus musculus with 6 samples.

Results

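The genes described here make, bind, reduce or degrade retinoids. They were chosen by name, as the 9 genes *Cyp26a1*, *Cyp26b1*, *Cyp26c1*, *Dhrs3*, *Rdh10*, *Aldh1a2*, *Aldh1a3*, *Crabp1* and *Crabp2*, out of 20631 genes in the RNA-seq tables of mouse neuromesodermal progenitors (NMPs). The rule uses gene names and no measured value, although the genes were chosen with earlier results of these data known. All 9 were found, as 12 of 30352 RefSeq transcripts, and all 9 passed the filter on low counts. By role, 4 genes clear retinoids or divert them back to retinol (the 3 *Cyp26* genes and *Dhrs3*), 3 lead to synthesis of retinoic acid (*Rdh10*, *Aldh1a2* and *Aldh1a3*) and 2 encode carriers (*Crabp1* and *Crabp2*).

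NMPs are caudal progenitors, the source of spinal cord as well as of presomitic mesoderm. They were derived here from mouse embryonic stem cells (ESCs) over 3 days with bFGF and, at the end, the WNT agonist CHIR99021, and then spent 2 h in N2B27 medium, with bFGF and CHIR99021 removed and with the DMSO vehicle, 25 nM retinoic acid (RA) or 1 µM RA. Each condition has 2 samples, which the methods call technical replicates from separate dishes, so that all errors and p-values below measure the spread between dishes of 1 experiment. All groups share the B27 supplement without retinoids, so the cells had no supplied precursor from which to make RA. The labels give the strain as 129 R1 and the methods describe the ESCs as C57BL/6, and this difference was not resolved. The samples are whole cultures, in which fewer cells of a type and less RNA per cell cannot be told apart.

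Retinol is oxidised to retinaldehyde by RDH10, and retinaldehyde is oxidised to RA by enzymes of the ALDH1A family. DHRS3 works against the first step by reducing retinaldehyde to retinol. The CYP26 cytochrome P450 enzymes oxidise RA to polar metabolites, which ends its signal. CRABP1 and CRABP2 are cytosolic proteins that hold RA, and CRABP2 can hand it to nuclear RA receptors. *Cyp26a1* and *Dhrs3* are long known as genes that RA induces, through which cells limit their own exposure to RA. In the embryo, *Cyp26a1* in the tailbud limits the RA that reaches the caudal progenitors. The authors describe RA activity that, before the tailbud stage, reaches the NMP region of the caudal epiblast.

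Total estimated counts ranged from 31753556 to 42029348 per library, and 15143 genes were tested. Labels were checked against *Rarb*, a known RA target gene. *Rarb* was at 0.26 and 0.21 RPKM with DMSO, 5.59 and 4.97 RPKM with 25 nM RA, and 6.65 and 6.89 RPKM with 1 µM RA. RPKM is the authors' read density, scaled by transcript length and library size. All 8 NMP markers listed had a mean above 1 RPKM in every condition, with *T* highest at 375 RPKM with DMSO. Markers of NMPs and of other cells moved with RA, where called means an adjusted p under 0.1. Over all genes tested, 4.50% were called higher and 3.55% lower at the lower dose, against 8.54% higher and 11.2% lower at the higher dose. Of the 8 NMP markers, 5 were called higher at the lower dose and 4 at the higher dose, while 2 were called lower at each. Among them *Sox2* had log2 fold changes of 1.56 and 1.64, *Cdx1* of 1.77 and 1.94, and *Evx1* of -0.70 and -0.86. The 6 neural markers summed to 0.631 to 0.761 RPKM with DMSO, 0.707 to 1.02 RPKM with 25 nM RA and 1.02 to 1.16 RPKM with 1 µM RA, and of the 4 tested 1 and then 2 were called higher. The summed level of 6 endoderm markers was 36.2 to 37.1 RPKM with DMSO, 29.2 to 29.5 RPKM with 25 nM RA and 27.1 to 28.4 RPKM with 1 µM RA. The sum of 8 presomitic and somitic markers went from 38.9 RPKM in both DMSO libraries to 30.7 to 33.8 RPKM and 26.6 to 28.6 RPKM. The sum of 8 feeder fibroblast markers stayed between 13.7 and 15.4 RPKM and that of 6 pluripotency markers between 25.5 and 28.7 RPKM. At both doses 3 of the 5 tested endoderm markers were called lower, and of the 5 tested presomitic and somitic markers 3 were called higher and 2 lower. Of the 7 tested feeder markers 3 were called lower with 1 µM RA, and none of the 6 pluripotency markers was called at either dose. The ESCs had been kept on feeder fibroblasts. No marker of these lists was at 0 in both libraries of a condition, except 1 neural marker with 25 nM RA. The part of these cells in the results below was not tested.

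Without RA, the 9 genes spanned a wide range of levels. *Cyp26a1* had the highest mean, at 52.4 ± 0.239 RPKM (SD, n = 2). The carriers followed, with 23.0 ± 0.158 RPKM for *Crabp2* and 12.4 ± 0.0154 RPKM for *Crabp1*, and then *Rdh10* with 9.92 ± 0.221 RPKM. The other 5 genes were below 1 RPKM on average. They were *Aldh1a2* at 0.812 ± 0.247 RPKM, *Cyp26c1* at 0.488 ± 0.126 RPKM, *Dhrs3* at 0.468 ± 0.152 RPKM, *Aldh1a3* at 0.0554 ± 0.0299 RPKM and *Cyp26b1* at 0.0219 ± 0.0097 RPKM. In this order the duplicates of *Cyp26c1* and *Dhrs3* overlapped, so that these neighbours did not differ beyond their spread. All other neighbours had duplicates that did not overlap, but with 2 libraries each the order was not tested. At its low end, *Aldh1a3* had 6 and 11 counts and *Cyp26b1* 7 and 3, so their ranks are uncertain. Cultures that had received no RA thus held mostly *Cyp26a1* mRNA among the clearance genes (98.1% and 98.2% of the summed RPKM), and mostly *Rdh10* mRNA among the synthesis genes.

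**Figure D1:**
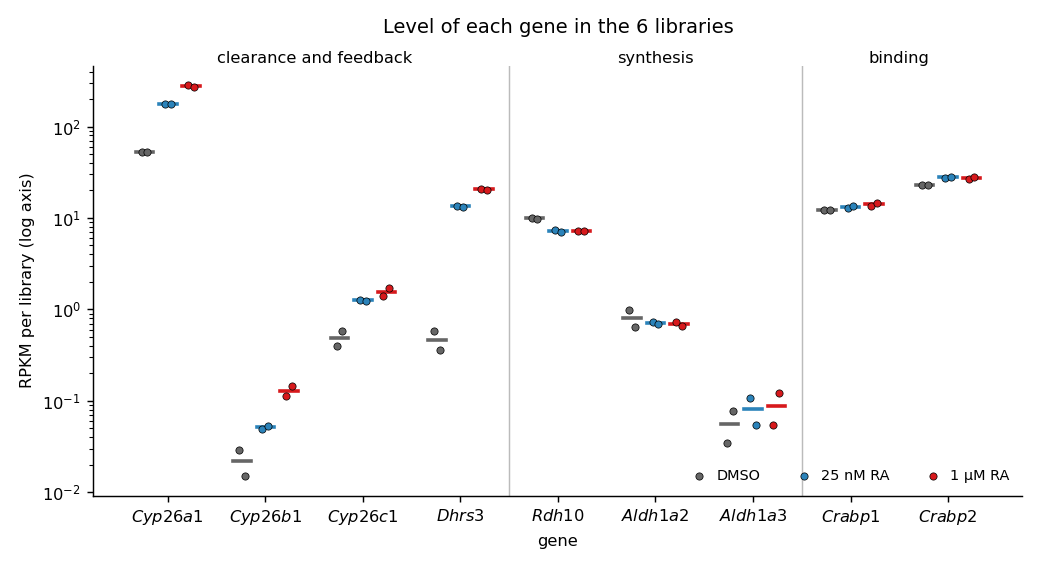
RPKM of the 9 genes in each of the 6 libraries on a log axis, grouped by role; points are libraries and short lines are means of 2. *Dhrs3* moves from below 1 RPKM with DMSO to 13.3 and 13.6 RPKM with 25 nM RA, while *Rdh10* moves from 9.76 and 10.1 RPKM to between 7.10 and 7.43 RPKM.

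The first comparison asks which of these genes respond within 2 h to 25 nM RA, which was meant to match the levels in embryonic tissue, and to 1 µM RA. The 2 DMSO samples served for both doses, so the 2 sets of fold changes are not independent. A gene was called changed at an adjusted p under 0.1 (edgeR, likelihood ratio, Benjamini-Hochberg over all genes tested). With 25 nM RA, 4 of the 9 genes were called higher and 1 lower, where 4.50% of all genes tested were called higher and 3.55% lower. With 1 µM RA, 5 were called higher and 1 lower, where 8.54% of all genes were called higher and 11.2% lower. The median log2 fold change of the 9 genes was 0.54 with 25 nM RA and 0.69 with 1 µM RA, and the median over all genes tested was -0.00051 and 0.0013. By role, 3 of the 4 clearance genes rose with 25 nM RA and all 4 with 1 µM RA. Among the 3 synthesis genes, *Rdh10* fell at both doses and none rose. Of the 2 carriers, *Crabp2* rose at both doses.

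**Figure D2:**
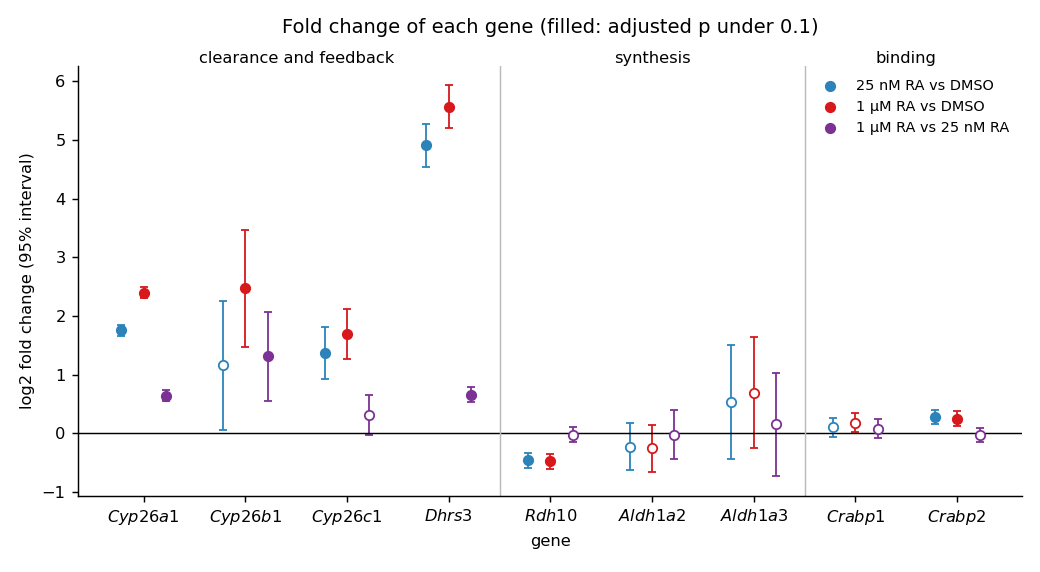
Log2 fold change of each gene in the 3 comparisons, with bars for 95% intervals from the fit; filled points have an adjusted p under 0.1. The 4 clearance genes lie between 1.16 and 5.57 against DMSO, and the 3 synthesis and 2 carrier genes between -0.48 and 0.69.

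*Cyp26a1* (chr19:37697808-37701536 in mm10, plus strand) encodes a CYP26 enzyme, and had the most abundant mRNA of the 9 genes in every condition. Its estimated counts were 4824 and 3937 with DMSO, 12171 and 15303 with 25 nM RA, then 21913 and 21290 at 1 µM RA. In RPKM the libraries held 52.6 and 52.3, then 178 and 178, then 283 and 272. The 3 conditions did not overlap, and the duplicates with 25 nM RA had nearly equal levels. The log2 fold change was 1.76 (SE 0.051) with 25 nM RA, with an edgeR adjusted p of 1.88e-250. With 1 µM RA it was 2.40 (SE 0.050), with a p below the smallest number that the software could hold. Only 3 of the 15143 genes tested had a larger likelihood ratio than *Cyp26a1* at either dose. With 25 nM RA its RPKM was above that of 98.3% to 98.4% of all genes in the tables.

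RA receptors bind direct repeats of a short motif, and a spacer of 5 bases between the copies is the best known arrangement. The RefSeq promoter windows (GRCm38.p6, 250 bases before to 50 after a start site) were searched on both strands for 2 copies of AGGTCA or GGGTCA or AGTTCA or GGTTCA in direct repeat, with a spacer of 1, 2 or 5 bases. Windows were found for 6 of the 9 genes, which are *Cyp26a1*, *Cyp26b1*, *Cyp26c1*, *Dhrs3*, *Aldh1a2* and *Crabp1*. The *Cyp26a1* window was the only one among them with a match, a repeat with a spacer of 5 on the strand opposite to the gene, 32 to 16 bases before the start of the RefSeq transcript NM_007811. No match says only that these letters are not in a window of 300 bases. Of all 32851 windows, 32 held a repeat with a spacer of 5 (0.0974%), 88 one with a spacer of 2 (0.268%) and 73 one with a spacer of 1 (0.222%). The genes tested here whose windows hold the spacer of 5 are shown so that the *Cyp26a1* site can be read beside the others, each on the strand of the repeat, 5′ to 3′, with the repeated motif in capitals:
Cyp26a1 (chr19:37697776-37697792): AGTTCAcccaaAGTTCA
Rarb (chr14:16575513-16575529): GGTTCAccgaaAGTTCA
Prokr2 (chr2:132385575-132385591): AGGTCAcaacgGGTTCA
Blvrb (chr7:27452399-27452415): AGTTCAaagccAGTTCA
Cfap45 (chr1:172520909-172520925): AGTTCAagccaGGTTCA
Syndig1 (chr2:149830616-149830632): GGGTCAcccctAGTTCA

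The repeats of *Cyp26a1* and *Blvrb* each use 1 motif for both copies, and those of *Cyp26a1*, *Rarb*, *Blvrb* and *Syndig1* end in the same motif. *Rarb*, which encodes an RA receptor, had log2 fold changes of 4.53 and 4.89 at the lower and higher dose. *Prokr2*, a receptor gene, was called at 1 µM RA only, with a log2 fold change of 0.83 and an edgeR adjusted p of 0.053. *Blvrb*, *Cfap45* and *Syndig1* were not called at either dose, with log2 fold changes from -0.32 to 0.51. A match is a description of letters and not a test of binding.

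*Cyp26c1* (chr19:37685680-37693307, plus strand) lies 4500 bases upstream of *Cyp26a1* on the same strand, and encodes a related RA-degrading enzyme. Its counts were 32 and 38 with DMSO, 76 and 93 with 25 nM RA, then 95 and 118 at 1 µM RA. The levels were 0.399 and 0.577 RPKM with DMSO, 1.27 and 1.24 RPKM with 25 nM RA, and 1.41 and 1.72 RPKM with 1 µM RA, without overlap between the conditions. The log2 fold change was 1.37 (SE 0.22, edgeR adjusted p = 1.35e-08) with 25 nM RA and 1.69 (SE 0.22, adjusted p = 1.50e-14) with 1 µM RA. *Cyp26a1* remained 90.6 to 202 times as abundant as its neighbour in RPKM in every library.

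*Cyp26b1* (chr6:84571414-84593908, minus strand), which encodes a further RA-degrading enzyme, was barely detected. It had 7 and 3 counts with DMSO, 9 and 12 with 25 nM RA, then 23 and 30 at 1 µM RA. All libraries were below 0.15 RPKM, and the 3 conditions did not overlap. The log2 fold change with 25 nM RA was 1.16 (95% interval 0.055 to 2.26). The edgeR p was 0.030 before and 0.25 after adjustment over all genes tested, so no change was called on these few counts. With 1 µM RA it was 2.47 (95% interval 1.48 to 3.46, adjusted p = 2.93e-07). Its 2 transcripts took 62.9% and 37.1% of the count in 5 of 6 libraries, whatever the condition, so they carry no separate information there.

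*Dhrs3* (chr4:144892827-144927645, plus strand) encodes the retinaldehyde reductase, and had the largest fold change of the 9 genes at both doses. Its counts were 41 and 24 with DMSO, 820 and 996 with 25 nM RA, then 1465 and 1433 at 1 µM RA. The levels were 0.576 and 0.361 RPKM, then 13.6 and 13.3 RPKM, then 20.8 and 20.2 RPKM, so that the lowest treated library was far above both DMSO libraries. The log2 fold change was 4.91 (SE 0.19) with 25 nM RA and 5.57 (SE 0.19) with 1 µM RA, which are 30.03-fold and 47.5-fold. Both p-values were below the smallest number that the software could hold. By likelihood ratio *Dhrs3* came 2nd of the 15143 genes with 25 nM RA and 1st with 1 µM RA. The size of these folds rests on 65 estimated counts in the DMSO libraries. Leaving out either DMSO library moved the log2 fold change to between 4.72 and 5.19 with 25 nM RA. In limma on log2(RPKM + 0.1) it was 4.60 with 25 nM RA and 5.21 with 1 µM RA. On log2(RPKM + 1), where the added 1 exceeds the DMSO levels, it was 3.30 and 3.88.

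**Figure D3:**
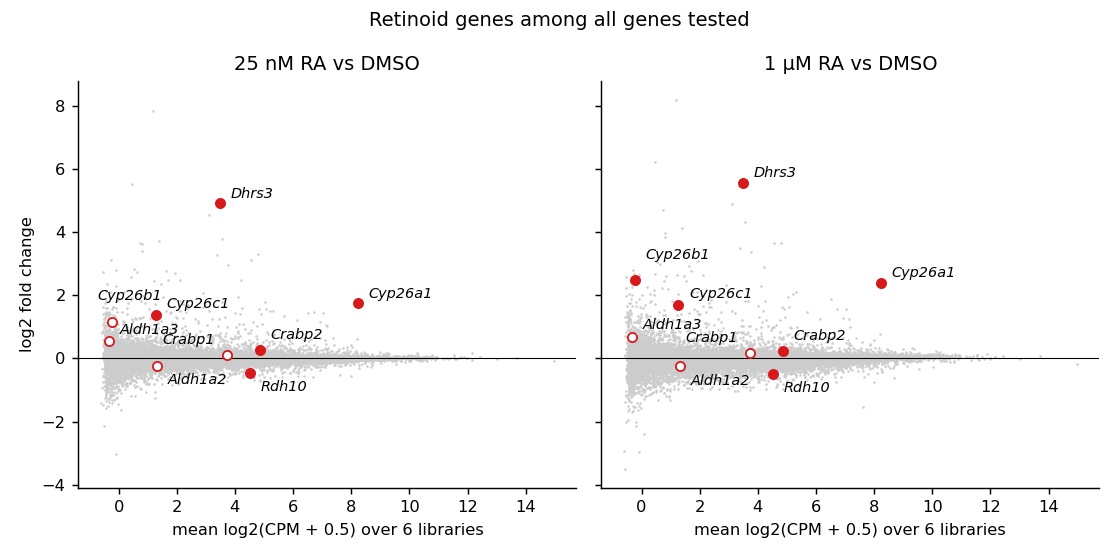
Log2 fold change against mean log2(CPM + 0.5) for the 15143 genes tested (grey), with the 9 retinoid genes marked (filled: adjusted p under 0.1). *Dhrs3* and *Cyp26a1* stand above the bulk of genes of their abundance at both doses, and *Rdh10* lies below 0.

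The 2 *Dhrs3* transcripts start 310 bases apart and share their 3′ end. The authors' estimation divided reads between NM_001172424, which starts first, and NM_011303. With 25 nM RA, NM_011303 held 65.2% and 61.6% of the *Dhrs3* count, and with 1 µM RA 79.7% and 76.6%. Its share was higher in both libraries with 1 µM RA than in both with 25 nM RA. With DMSO the share was 11.5% of 41 counts and 66.9% of 24 counts, a spread between duplicates that leaves no usable value. Both transcripts rose against DMSO at both doses, by log2 fold changes of 4.06 (SE 0.40) and 3.98 (SE 0.40) for NM_001172424 and 5.86 (SE 0.34) and 6.82 (SE 0.34) for NM_011303. Between the doses, NM_011303 was higher with 1 µM RA by 0.96 on the log2 scale (SE 0.14, edgeR adjusted p = 1.31e-08 over 22074 transcripts). For NM_001172424 the difference was -0.09 (SE 0.34, adjusted p = 0.99). The difference between the transcripts was not itself tested, and short single-end reads shared by both limit how well they can be told apart.

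**Figure D4:**
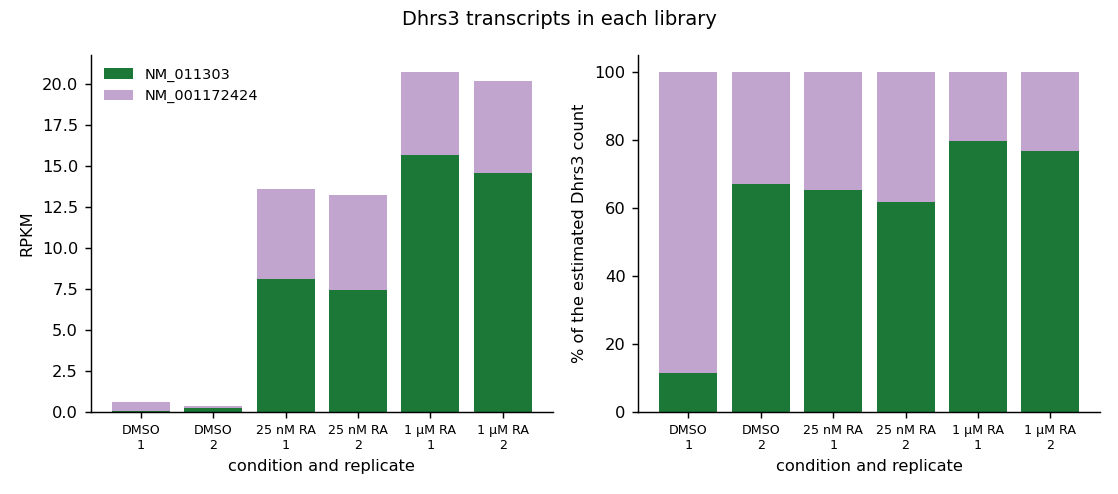
*Dhrs3* transcripts in each library as stacked RPKM (left) and as a percentage of the estimated *Dhrs3* count (right). The NM_011303 share is 61.6% to 65.2% with 25 nM RA and 76.6% to 79.7% with 1 µM RA, while the DMSO shares rest on 41 and 24 counts.

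None of the 3 synthesis genes was called higher at either dose. *Rdh10* (chr1:16105882-16132550, plus strand), which encodes the retinol dehydrogenase of the first step, fell at both doses. It was at 10.1 and 9.76 RPKM with DMSO, 7.43 and 7.10 RPKM with 25 nM RA, and 7.18 and 7.17 RPKM with 1 µM RA. All 4 treated libraries were below both DMSO libraries. The log2 fold change was -0.46 (SE 0.065, edgeR adjusted p = 1.96e-10) with 25 nM RA and -0.48 (SE 0.065, adjusted p = 1.30e-11) with 1 µM RA, or 0.729 and 0.719 times the DMSO level. *Rdh10* was the one gene of the 9 that was called lower at any dose.

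*Aldh1a2* (chr9:71215789-71296243, plus strand) encodes the retinaldehyde dehydrogenase that makes RA in the early trunk, and *Aldh1a3* (chr7:66390893-66427477, minus strand) a related enzyme. *Aldh1a2* had 115 and 61 counts with DMSO, 63 and 75 with 25 nM RA, then 72 and 65 at 1 µM RA. The DMSO duplicates, at 0.986 and 0.637 RPKM, spanned all 4 treated libraries, which lay between 0.653 and 0.733 RPKM. No change of *Aldh1a2* was detected, with log2 fold changes of -0.23 (95% interval -0.63 to 0.17, edgeR adjusted p = 0.72) and -0.25 (95% interval -0.66 to 0.15, adjusted p = 0.46). Its direction rests on the DMSO libraries. With 1 µM RA the value was 0.11 (adjusted p = 0.86) without DMSO replicate 1 and -0.51 (adjusted p = 0.093) without DMSO replicate 2. A processed pseudogene on the other strand, *Gm48124*, lies within *Aldh1a2*, and whether the counting used strand is not given in the sources used here. *Aldh1a3* had 6 to 18 counts in the 6 libraries, with overlap between all conditions, and its log2 fold changes of 0.54 (95% interval -0.43 to 1.51) and 0.69 (95% interval -0.26 to 1.64) did not pass the test. Leaving out 1 library moved them widely, with no call. At the lower dose the value was 0.025 without DMSO replicate 1 and 1.18 without DMSO replicate 2. At the higher dose it was 0.020 without 1 µM RA replicate 2 and 1.33 without DMSO replicate 2.

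The carriers moved little. *Crabp2* (chr3:87948693-87953372, plus strand) was at 22.9 and 23.1 RPKM with DMSO, 27.5 and 28.3 RPKM with 25 nM RA, and 26.7 and 28.3 RPKM with 1 µM RA. Every treated library was above both DMSO libraries, and the doses overlapped. The log2 fold change was 0.28 (SE 0.063, edgeR adjusted p = 0.00042) with 25 nM RA and 0.25 (SE 0.063, adjusted p = 0.0011) with 1 µM RA, which are 1.21-fold and 1.19-fold. *Crabp1* (chr9:54764748-54773110, plus strand) was at 12.4 RPKM in both DMSO libraries, 12.999 and 13.6 RPKM with 25 nM RA, and 13.6 and 14.6 RPKM with 1 µM RA. Its duplicates did not overlap with those of DMSO at either dose. The differences did not pass the test, at 0.10 (95% interval -0.057 to 0.26, adjusted p = 0.66) and 0.18 (95% interval 0.025 to 0.34, adjusted p = 0.11). The *Crabp1* value with 1 µM RA was close to the threshold, and the adjusted p was 0.059 to 0.098 in 3 of the other settings tried.

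The second comparison asks which of the 9 genes separate the doses. In the direct contrast of 1 µM RA with 25 nM RA, 3 of 9 genes were higher at the higher dose and none lower, where 0.792% of all genes tested were higher and 2.62% lower. The 3 were *Cyp26a1*, *Dhrs3* and *Cyp26b1*, all of them clearance genes. *Cyp26a1* was higher by 0.64 on the log2 scale (SE 0.049, edgeR adjusted p = 3.37e-35), the largest likelihood ratio of the 15143 genes in this contrast. *Dhrs3* was higher by 0.66 (SE 0.063, adjusted p = 8.05e-22), the third largest. In limma on log2(RPKM + 0.1) the *Dhrs3* difference was 0.61 and was not called (adjusted p = 0.25). In RPKM, the mean of *Cyp26a1* gained 125 from DMSO to 25 nM RA and another 100.04 from there to 1 µM RA, and the mean of *Dhrs3* gained 12.97 and then 7.07.

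*Cyp26b1* was higher at 1 µM RA by 1.31 (SE 0.38, adjusted p = 0.020), on 9 to 30 counts per library. This call was lost without either 25 nM RA library (adjusted p = 0.23 and 0.20) and without 1 µM RA replicate 2 (adjusted p = 0.20). *Cyp26c1* was higher by 0.32 (95% interval -0.020 to 0.66, edgeR adjusted p = 0.43), and this interval includes 0. The synthesis and carrier genes gave no call. The interval of the dose difference was -0.15 to 0.11 for *Rdh10*, -0.15 to 0.096 for *Crabp2* and -0.078 to 0.24 for *Crabp1*, so that these data leave room only for small differences. For *Aldh1a2* it was -0.44 to 0.39 and for *Aldh1a3* -0.73 to 1.04, which is wide.

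The balance of opposing mRNAs can be followed in each library from length-scaled levels. The RPKM of *Dhrs3* over that of its opposing enzyme gene *Rdh10* was 0.057 and 0.037 with DMSO, 1.83 and 1.87 with 25 nM RA, then 2.90 and 2.82 at 1 µM RA. *Dhrs3* mRNA was thus scarcer than *Rdh10* mRNA in both DMSO libraries and more abundant in all 4 treated libraries. Another retinaldehyde reductase gene, *Rdh11*, is not part of this ratio. Its means were 76.3, 75.5 and 82.0 RPKM with DMSO, 25 nM RA and 1 µM RA, above *Rdh10* in each condition. The summed RPKM of the 4 clearance genes over that of the 3 synthesis genes was 4.83 and 5.08 with DMSO, 23.3 and 24.5 with 25 nM RA, then 38.4 and 37.0 at 1 µM RA. Most of this ratio was *Cyp26a1* over *Rdh10*. *Cyp26a1* held 92.2% to 98.2% of the summed clearance RPKM and *Rdh10* held 89.9% to 93.2% of the summed synthesis RPKM in the 6 libraries. *Dhrs3* held 0.678% to 1.07% of the clearance sum with DMSO and 6.80% to 7.07% in the treated libraries. *Crabp2* over *Crabp1* stayed between 1.85 and 2.11. These are ratios of mRNA levels, and no enzyme amount, retinoid level or turnover was measured.

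With RA the order of the 9 genes by level changed mainly through *Dhrs3*. It was 7th of 9 with DMSO and 3rd at both doses. With 25 nM RA its mean of 13.4 ± 0.245 RPKM overlapped that of *Crabp1*, at 13.3 ± 0.398 RPKM, and with 1 µM RA it was above *Crabp1* without overlap. *Cyp26c1* passed *Aldh1a2* at both doses, and *Cyp26b1* and *Aldh1a3* overlapped at the bottom with 1 µM RA.

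A list of 46 further genes covered uptake and storage of retinol, other retinol dehydrogenases and retinaldehyde reductases, other retinaldehyde dehydrogenases with carotenoid cleavage enzymes, and RA carriers with P450 partners. Of these, 40 were in the tables and 30 were tested. At each dose 2 of the 30 rose and none fell, a share of higher calls near the 4.50% and 8.54% over all genes tested. In the direct contrast of the doses none was called. The median log2 fold change over the 30 genes was -0.019 with 25 nM RA and 0.041 with 1 µM RA. Both that rose belong to uptake, storage and retinol binding, where 9 of 11 genes were tested. None of the 13 tested dehydrogenases and reductases, the 3 tested retinaldehyde dehydrogenase and cleavage genes, or the 5 tested carrier and partner genes was called at either dose.

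*Stra6*, which encodes a receptor for retinol uptake, was at 0.311 and 0.331 RPKM with DMSO, 0.714 and 0.684 RPKM with 25 nM RA, and 0.809 and 0.868 RPKM with 1 µM RA. Its log2 fold change was 1.12 (SE 0.20, edgeR adjusted p = 3.04e-07) and 1.42 (SE 0.19, adjusted p = 6.84e-13). It showed no overlap between DMSO and treated libraries. *Lrat*, which encodes the enzyme that stores retinol as esters, was called on very few reads. It had 2 and 7 counts with DMSO, 7 and 19 with 25 nM RA, then 15 and 7 at 1 µM RA, with adjusted p of 0.054 and 0.089, and its RPKM with 1 µM RA overlapped that with DMSO.

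The 5 listed genes with the highest level in DMSO were *Cyb5a* at 215 RPKM, *Adh5* at 125 RPKM, *Fabp5* at 109 RPKM, *Rdh11* at 76.3 RPKM and *Cbr1* at 33.1 RPKM. None of them was called at either dose. *Fabp5*, a fatty acid carrier that can also hold RA, has a near copy, *Fabp5l2*, so its count is uncertain. *Rdh11* encodes a further retinaldehyde reductase, and its mRNA was 7.69 times that of *Rdh10* in DMSO by mean RPKM.

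**Figure D5:**
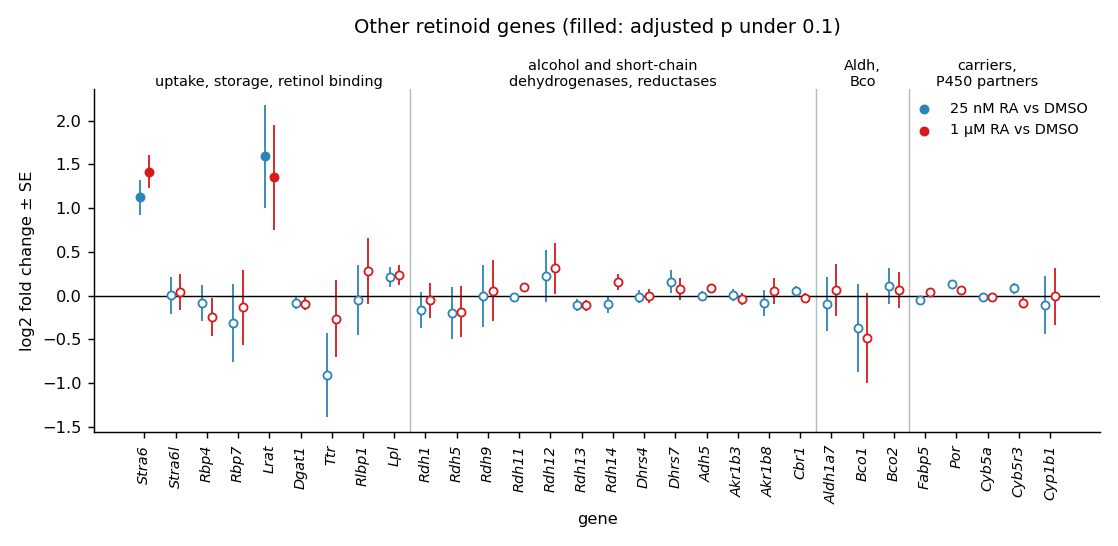
Log2 fold change with its SE for the 30 tested genes of the wider retinoid list at both doses, grouped by function; filled points have an adjusted p under 0.1. *Stra6* and *Lrat* are the filled genes, both in the group of uptake, storage and retinol binding.

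For each of the 5 retinoid genes called at both doses, the genes with the nearest pair of log2 fold changes were looked up among 845 other genes called at both doses with a mean of at least 1 RPKM in some condition. The distance is that between the 2 pairs on the log2 scale, over the 6 samples. *Dhrs3* had few genes near it. The nearest were *Rarb* at a distance of 0.78 and *Stra8*, an RA-induced germ cell gene, at 0.89 with log2 fold changes of 5.52 and 6.22. The gene nearest to *Cyp26a1* was *Tmem200b*, at a distance of 0.072, with log2 fold changes of 1.82 and 2.44, followed by *Dusp14* and *Aurkc*. For *Cyp26c1* it was *Pdgfrb*, a growth factor receptor gene, at 0.067, with 1.44 and 1.67. *Rdh10* had close neighbours, with *Gpr85* at 0.013 and *Fgf13* at 0.022, as did *Crabp2*, with *Mpv17l2* at 0.0036 and *Arhgef5* at 0.0070.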

How the data were processed

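RNA-seq of 6 samples was analysed, with groups taken from the sample labels. Ribosomal RNA-depleted total RNA was sequenced as single-end reads of 50 bases, and per the labels' processing notes FastQC 0.11, TopHat2 2.0.13, Bowtie2 2.2.5.0 and Partek 6.6 were used with mm10. The authors deposited estimated counts of RefSeq transcripts, made by expectation-maximization and not normalized, and many are not whole numbers. The deposited RPKM values were scaled by the authors by transcript length and library, and imply 38466126 to 51499056 reads per library, of which the estimated counts are 81.2% to 83.2%. Depth limits the rare genes, since 3 counts are 0.0714 to 0.0945 CPM, and intervals cover counting error and the spread between dishes only.

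Estimated counts were summed per gene, rounded and fitted for all 6 samples in edgeR 4.0.16 (R 4.3.3) with TMM factors and filterByExpr. The test was the likelihood ratio test of a generalized linear model, as in the methods. Benjamini-Hochberg adjustment ran over 15143 genes, and the 1 µM against 25 nM comparison was a contrast in the same fit. The biological coefficient of variation was 0.0351. With 2 samples per condition no permutation test can reach a small p, so none was made. Intervals are the estimate and its SE at 95%. The fits were tested on simulated data. Levels between genes are compared in RPKM, summed over transcripts.

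The 9 genes and all lists were chosen with earlier results of these data known. All 9 are described. Results for some listed genes are not reported here, and the list counts leave them out. From the wider list, genes called in any comparison and the 5 with the highest RPKM in DMSO are named, and for likeness the 5 nearest genes were listed, of which some are named. Alternatives were the quasi-likelihood test, DESeq2 1.42.0, its size factors, total counts, other filters, a replicate block, fits of 4 samples, a threshold of 0.05, the deposited transcripts, limma 3.58.1 on log2(RPKM + 0.1) and log2(RPKM + 1), RPKM on TMM-scaled libraries, CPM in place of RPKM for shares, and leaving out each sample. Promoter windows are from RefSeq (GRCm38.p6), overlaps from GENCODE on GRCm38. Ends are 1 below the deposited Stop. The printed ends equal the RefSeq gene ends except for *Cyp26c1* and *Dhrs3*. Python 3.11.15 with pandas 2.3.3, numpy 2.4.6 and matplotlib 3.10.9 made the tables and plots.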

Additional observations from a re-analysis of the deposited data

How the results depend on the processing

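The members called with 25 nM RA were the same 5 genes under each of the 18 alternatives. With 1 µM RA, 5 to 7 members were called, and with the doses compared, 1 to 3. Of 473 alternative values of the 9 genes' log2 fold changes, 453 kept their direction and their side of the threshold, 7 lost and 4 gained a call, and 9 changed sign, all for differences that were not called. *Cyp26b1* against 25 nM RA lost its call in limma on log2(RPKM + 0.1) (adjusted p = 0.30) and on log2(RPKM + 1) (0.35), among the transcripts (0.27) and without 3 of the libraries, while DESeq2 gave no adjusted p for it at 1 µM RA. *Dhrs3* against 25 nM RA lost its call in limma on log2(RPKM + 0.1) (adjusted p = 0.25), which left 1 member called. *Crabp1* gained a call with 1 µM RA in both limma fits and with a filter of 1 CPM in 2 samples. The size of the smallest p-values depended strongly on the test. For *Cyp26a1* with 25 nM RA the adjusted p was 1.12e-14 in the quasi-likelihood test and 1.49e-07 in limma on log2(RPKM + 0.1). For *Dhrs3* with 25 nM RA these tests gave 7.74e-15 and 1.24e-06. The causes were not tested.

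Counts over all genes moved more. With 25 nM RA, 1219 genes were called, against 567 in DESeq2, 696 and 699 in limma with the smaller and larger pseudocount, and 744 with the transcripts. With 1 µM RA, 2983 were called, against 1594 in DESeq2 and 1639 with the transcripts. Between the doses, 516 were called, against 336 in the quasi-likelihood test, 158 in DESeq2, 10 in each limma fit and 340 at an adjusted p under 0.05. When each sample was left out, with the lone sample assumed to vary like the other groups, these counts were 799 to 1345, 1922 to 2838 and 205 to 577, and the members called were 5 in each case, 6 to 7 and 2 to 3. Counts moved by over 1.5 times without 25 nM RA replicate 2 (799) or DMSO replicate 2 (800) for the lower dose, without DMSO replicate 1 (1960) or 2 (1922) for the higher, and without 25 nM RA replicate 1 (205) or 2 (247) between the doses.

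Sign changes arose when a sample was left out. *Aldh1a2* ranged from -0.49 to 0.13 with 25 nM RA, from -0.51 to 0.11 with 1 µM RA, and from -0.12 to 0.065 between the doses. Between the doses *Rdh10* ranged from -0.045 to 0.0029, *Aldh1a3* from -0.52 to 0.66 and *Crabp2* from -0.061 to 0.0074. With the replicate number as a block, 1138, 2756 and 423 genes and 5, 6 and 3 members were called. Deviations of same-numbered samples had correlations of -0.066, 0.074 and -0.095 over genes. With 2 samples per condition, these values are too few to decide whether the numbers pair the samples. TMM scaling moved no mean RPKM by more than 0.787%. Within the *Cyp26* genes and within the synthesis genes, CPM moved no mean share by more than 0.521 percentage points. Of these 18 shares, 8 moved by over 1 SD. Shares of the clearance sum moved more in some libraries. In 25 nM RA replicate 2, *Cyp26a1* held 92.4% by RPKM and 93.3% by CPM, and *Dhrs3* 6.90% and 6.07%.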
